A study of Mus musculus with 10 samples.

Results

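Mouse skin libraries whose titles begin with EAS42 were compared with those whose titles begin with EAS37, with genotype held as a block. The comparison used all 10 libraries of the series, 5 with the prefix EAS37 (3 WT and 2 KI) and 5 with the prefix EAS42 (2 WT and 3 KI), each taken as 1 animal. WT stands for wild type and KI for the genotype that the labels write as Hamp1-KI ker, in skin that overexpresses Hamp, which encodes the iron hormone hepcidin. The labels give no age, sex, body site, collection hour or promoter, and they do not say what the prefixes or "ker" mean, so a litter, a cohort, a day or a body site cannot be told apart as the meaning of a prefix. Hamp stood between 1.86 and 3.33 CPM (read counts scaled to library size) in the 5 WT libraries and between 85.6 and 169 CPM in the 5 KI libraries, so each library matched its genotype label under both prefixes. A difference is always EAS42 minus EAS37, on the log2 scale unless a unit is given. A gene is called where edgeR's quasi-likelihood test gave an adjusted p under 0.05. Replicates are named by the number in their title. The labels do not say that these numbers tie an EAS37 animal to an EAS42 animal, and the main tests pair no animals.

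Skin holds hair follicles that pass through growth (anagen), regression (catagen) and rest (telogen). During growth, matrix cells of the hair bulb turn into the hard shaft, made of hair keratins and keratin-associated proteins, and into the inner root sheath around it, and pigment cells of the bulb hand melanin to the shaft. Follicles of young mice cycle nearly together and later in patches, so skin can be in another phase from site to site or from week to week. Skin cells also keep a circadian clock, in which CLOCK and BMAL1 (encoded by Arntl) bind E-box sequences in genes such as Per, Cry, Nr1d and Dbp, and the products of these genes feed back on the pair. DBP, TEF and HLF in turn bind D-box sequences.

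The largest differences were in hair shaft genes such as Krt33b, Krt34 and Krtap6-2, which were present in all 5 EAS37 libraries and at or near 0 in the 5 EAS42 libraries of both genotypes. Some clock output genes, led by Dbp and Per3, were higher in EAS42, as were some pigment cell genes and Sox10, while Lrg1, Krt8, Cxcl14, Krt6a and Krt14 were lower. Of 17321 genes tested, 428 were called (2.47%), 136 of them higher in EAS42 (0.785%) and 292 lower (1.69%). Among these, 178 differed at least 2-fold, 51 higher and 127 lower, and all 59 genes that differed at least 16-fold were lower in EAS42. At an unadjusted p under 0.05 there were 3355 genes. The median difference over all genes was 0.0018.

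These calls came from 5 against 5 libraries and depended on single libraries. Without WT EAS42 1 only 3 genes were called, without WT EAS42 3 only 5, without KI EAS37 2 only 11, without KI EAS42 2 only 57, without KI EAS42 6 only 90, without KI EAS37 4 only 103 and without WT EAS37 1 only 206. Without KI EAS42 4, WT EAS37 3 or WT EAS37 6 there were 364, 380 and 457. In each of these 10 fits all 428 genes kept the sign of their difference. That adds no support, because the genes were selected in these libraries and in 423 the prefix groups were apart in both genotypes. Of 74 genes with a genotype-adjusted call that were followed through these fits, Dbp, Per3 and Lrg1 were called in all 10. The other 71 lost their call in at least 1, 71 of them without WT EAS42 1 and 70 without WT EAS42 3. Without KI EAS37 2, KI EAS42 2, KI EAS42 6 or KI EAS37 4, 64, 58, 54 and 53 lost it. Without any one of the remaining libraries 12 to 30 did.

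The 2 prefixes separated along the second principal component of log2 CPM, which held 26.9% of the variance. EAS37 libraries lay between 14.0 (WT EAS37 3) and 80.7 (WT EAS37 6) on it, and EAS42 libraries between -38.5 and -31.1. The first component held 43.1% and separated the genotypes. The gene with the largest weight on the second component was Krtap1-5, a keratin-associated protein gene, followed by Gm10228, Krt81, Krt34 and Krtap7-1. Over single genes, prefix took a median of 8.82% of the sum of squares beyond genotype, against 35.7% for genotype beyond prefix, and it took over 50% in 834 genes.

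**Figure D1:**
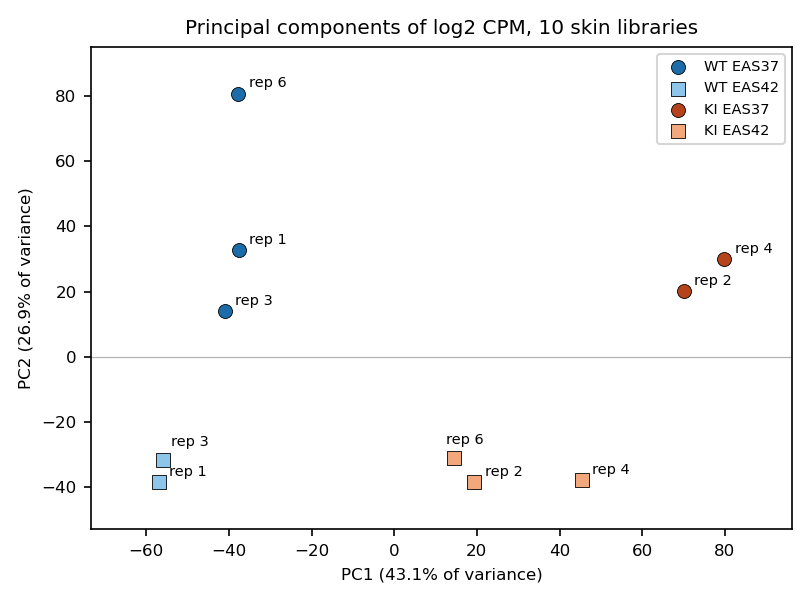
Position of the 10 libraries on the first and second principal components of log2 CPM over 17321 genes, with the share of variance on each axis. Circles are EAS37 and squares EAS42, blue is WT and orange KI, and "rep" is the number in the title. All EAS37 libraries lie above 0 on the second component and all EAS42 libraries below it.

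Prefix groups that do not overlap within WT, nor within KI, in the same direction were found in 784 genes that were higher in EAS42 (4.53%) and in 1103 that were lower (6.37%). For a further 1202 genes (6.94%) the prefix groups were apart in both genotypes but in opposite directions. Of the 428 called genes, 423 were apart in the same direction in both genotypes. Where a gene is lower in bulk skin, fewer cells of a type and less RNA per cell cannot be told apart.

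Hair keratin genes lie in clusters, and for a pair of neighbours the 250 bases before the RefSeq start (build GRCm38.p6) are printed, because both genes stood at or near 0 in EAS42. Capitals mark CTTTGAAG, a form of the site bound by LEF1, the WNT pathway factor of the hair bulb, and TATAAA, the TATA box. Krt33b is read from the minus strand of chr11:100029869-100030118 and Krt34 from the minus strand of chr11:100041555-100041804.
Krt33b: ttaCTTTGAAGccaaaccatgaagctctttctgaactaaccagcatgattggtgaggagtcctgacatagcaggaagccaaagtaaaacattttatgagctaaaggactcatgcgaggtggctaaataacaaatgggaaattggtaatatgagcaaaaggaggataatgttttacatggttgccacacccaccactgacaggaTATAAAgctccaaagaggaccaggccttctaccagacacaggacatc
Krt34: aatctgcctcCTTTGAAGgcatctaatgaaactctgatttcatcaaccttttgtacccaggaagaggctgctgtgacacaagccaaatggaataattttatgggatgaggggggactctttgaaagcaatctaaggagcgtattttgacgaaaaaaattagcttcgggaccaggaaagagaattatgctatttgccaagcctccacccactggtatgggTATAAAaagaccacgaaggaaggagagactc

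In Krt33b the CTTTGAAG lies 247 to 240 bases before the start and the TATAAA 47 to 42 bases before it. In Krt34 they lie 240 to 233 and 31 to 26 bases before it. On either strand of the same 250 bases, CTTTGAAG occurs in 1.42% of all 32851 RefSeq promoters of the table and TATAAA in 12.4%. Of the 45 keratin and Krtap genes called lower in EAS42, 38 had a promoter in the table, and 6 of these held CTTTGAAG and 30 held TATAAA. These are letters in a window, and binding was not measured.

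Hair shaft keratins had the largest differences. Krt33b, a keratin of the hair cortex (minus strand of chromosome 11, 100023634 to 100029868, in GENCODE M21 on GRCm38, as for the other gene positions), stood at 15.99, 2.38 and 279.6 CPM in WT EAS37 1, 3 and 6 and was listed at 0 in both WT EAS42 libraries. In KI it stood at 12.9 and 58.0 CPM in EAS37 2 and 4, at 0 in EAS42 2 and 4 and at 0.0507 CPM in EAS42 6. A single count in 5 EAS42 libraries stood against 7222 in EAS37. The ratio of EAS37 to EAS42 was thus 7649 (95% exact interval 1372 to 302165, counting error only), and edgeR gave an adjusted p of 0.0402.

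Krt34, its neighbour (chromosome 11, 100037347 to 100041554), held 10110 counts in EAS37 and 14 in EAS42, a ratio of 765 (interval 456 to 1400; edgeR adjusted p = 0.0380). Its WT values were 29.5, 5.91 and 385.9 CPM in EAS37 against 0 and 0.596 CPM in EAS42, and its KI values 19.6 and 73.1 CPM against 0, 0 and 0.0507 CPM. Both genes were highest in WT EAS37 6 and lowest among EAS37 in WT EAS37 3, and no EAS42 library reached any EAS37 library. The type II hair keratins Krt81 and Krt86, their partners in the filaments of the cortex, followed the same order, with ratios of 1218 (662 to 2540) and 773 (461 to 1415).

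Keratin-associated proteins, which crosslink the keratin filaments of the shaft, fell as a family. Of 58 Krtap genes with an identifier, the filter kept 37 for testing. Of these 37, 30 were called lower in EAS42, against 1.69% of all genes, and none was called higher. In 36 the prefix groups were apart in both genotypes with EAS42 lower, against 6.37% of all genes. The filter took the prefixes as groups, so a gene near 0 in EAS42 was tested only where the EAS37 libraries held enough counts. These counts thus describe the genes that could be tested, not the whole family. Summed over the family, EAS37 libraries held between 130.6 CPM (WT EAS37 3) and 7353 CPM (WT EAS37 6), and EAS42 libraries between 7.36 and 39.5 CPM. The largest falls by the rule were Krt33b, Gm10228, Krtap6-3, Krt81, Krtap6-5, 1110025L11Rik, Gm49425, Krtap6-2, Krtap1-5 and Gm11562, each with a fitted difference of -9.51 or lower. Krtap6-2 (chromosome 16, 89419326 to 89420111) stood at 34.0, 3.88 and 225.4 CPM in WT EAS37 and 19.1 and 24.3 CPM in KI EAS37, against 0.152 and 0.0917 CPM in WT EAS42 and 0, 0 and 0.0507 CPM in KI EAS42. Members of such multigene families share sequence, so the split of reads between near copies is uncertain. The count of 30 was 13 without WT EAS37 1, 33 and 34 without WT EAS37 3 and 6, 3 without KI EAS42 4 and 0 without any one of the other 6 libraries.

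Of 7 inner root sheath keratins tested, 4 were called lower, against 1.69% of all genes, and none higher. In 5 the prefix groups were apart in both genotypes with EAS42 lower, against 6.37% of all genes. The limit that the filter sets on the Krtap counts holds for these counts too. Krt28 (-3.24) and Krt73 (-4.21) were among those not called. Krt27 and Krt71 encode keratins of that sheath, and Tchh encodes trichohyalin, which fills its cells and the medulla. Krt27 stood at 106.8, 17.2 and 663.9 CPM in WT EAS37 against 0.417 and 2.06 CPM in WT EAS42, and at 52.0 and 179.6 CPM in KI EAS37 against 1.66, 1.40 and 1.62 CPM in KI EAS42 (difference -6.94 ± 1.18, SE; edgeR adjusted p = 0.0365). Tchh kept a floor of 9.44 to 18.2 CPM in EAS42, against 54.8 to 1763 CPM in EAS37, a difference of -4.84 ± 0.94 (edgeR adjusted p = 0.0416). Both genes were again highest in WT EAS37 6 and lowest among EAS37 in WT EAS37 3. Krt36 (-4.93), Krt84 (-5.43), Krt35 (-6.43), Krt25 (-7.21) and Krtap8-1 (-8.22) were called as well.

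**Figure D2:**
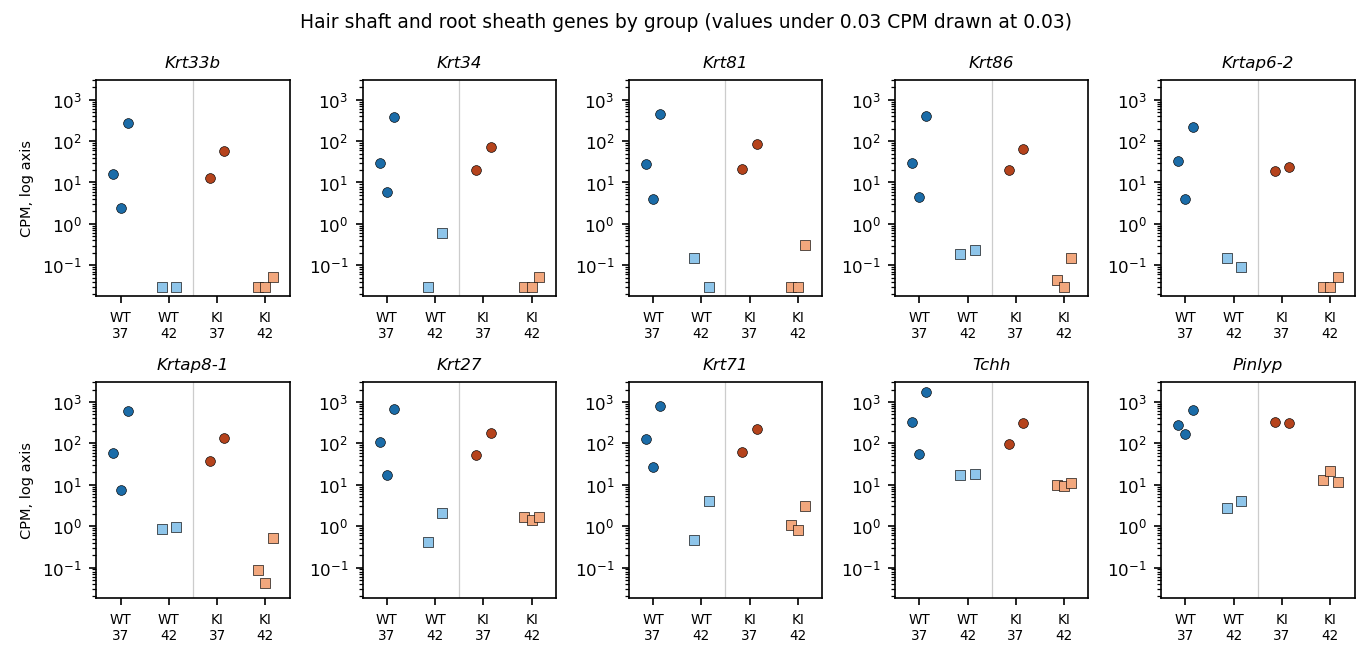
CPM on a log axis for 8 hair shaft and root sheath keratin or Krtap genes, Tchh and Pinlyp, in the 4 groups (37 and 42 stand for EAS37 and EAS42). Each point is 1 library, and values under 0.03 CPM are drawn at 0.03. In every panel the EAS42 squares lie below all EAS37 circles of the same genotype.

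Of the 22 anagen hair shaft genes in the list, Krtap13 was too scarce to test. Of the 21 tested, 13 were called lower, against 1.69% of all genes, and none higher. The median difference was -6.94 against 0.0018 over all genes, and all 21 had a fitted difference below 0. Krt31, Krt32, Krt33a, Krt83, Krt28, Krt73, Padi3 and S100a3 were not called, at fitted differences from -7.75 to -1.84. In 18 of the 21 the prefix groups were apart in both genotypes with EAS42 lower, against 6.37% of all genes. As for the Krtap genes, a member near 0 in EAS42 was tested only where the EAS37 libraries held enough counts. For such a member, groups that are apart were nearly given. The list level, the mean log2 CPM of its members, ran from 2.68 to 8.14 in EAS37 and from -1.51 to 0.04 in EAS42. The count of 13 fell to 6 without WT EAS37 1 and to 0 without any one of the 5 EAS42 libraries or of the 2 KI EAS37 libraries, and it was 18 without WT EAS37 3 or WT EAS37 6. With limma-voom it was also 0, and with DESeq2 19.

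Transcription factors of the hair bulb differed far less than the shaft genes. Hoxc13, which switches on hair keratin genes (chromosome 15, 102921103 to 102928814), stood at 52.5, 47.4 and 99.9 CPM in WT EAS37 and 20.1 and 20.9 CPM in WT EAS42, and at 58.5 and 55.2 CPM in KI EAS37 against 21.6, 22.9 and 18.8 CPM in KI EAS42. The difference was -1.56 ± 0.20 (edgeR adjusted p = 0.0165), with no overlap in either genotype. The homeobox genes Msx2 (-1.53) and Dlx3 (-1.10) and the hairless corepressor gene Hr (-0.87) were lower too. Gli1, the target that reads out hedgehog signalling, was higher by 0.97 (edgeR adjusted p = 0.0408). Over the list of 22 tested hair growth regulators, 3 were called lower and 1 higher, against 1.69% and 0.785% of all genes. Their median was 0.19.

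Further genes with known follicle roles lay on both sides. Sox9, a factor of the outer root sheath and of stem cells, was lower by 0.92 on the log2 scale. Id4, an inhibitor of basic helix-loop-helix factors, was lower by 0.78. They were the 2 called members of 17 tested in the list of the bulge and resting follicle (median 0.0048), beside 2.47% called over all genes. Pinlyp stood at 279, 164 and 637 CPM in WT EAS37 against 2.73 and 3.99 CPM in WT EAS42, and at 321 and 317 CPM in KI EAS37 against 12.7, 21.0 and 11.8 CPM in KI EAS42 (difference -5.48 ± 0.64; edgeR adjusted p = 0.0165). It is not a member of the hair lists and was picked after its values were seen, as were Frem1 (0.99), Sfrp5 (1.24) and Ngfr (0.94), which were higher in EAS42, and Ctnnb1 (-0.52), which encodes beta-catenin and was lower. Sfrp5 encodes a secreted WNT antagonist and Ngfr a neurotrophin receptor.

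Of 13 tested clock repressors and E-box outputs, 8 were called higher in EAS42 and none lower (Dbp, Per3, Nr1d2, Tef, Nr1d1, Hlf, Per2 and Cry2). Over all genes 0.785% were called higher. All 13 had a fitted difference above 0, and the median was 0.70. Per1 (0.20), Bhlhe41 (0.05), Bhlhe40 (0.26), Usp2 (0.30) and Ciart (0.70) were not called, and within WT the fitted differences of Per1 (-0.0077) and Bhlhe41 (-0.28) lay below 0. In 9 of the 13 the prefix groups were apart in both genotypes with EAS42 higher, against 4.53% of all genes. The count was 2 without either WT EAS42 library, 3 without KI EAS37 2, 4 without KI EAS42 2 and 6 to 8 without any one of the other 6 libraries.

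Dbp, a PAR bZIP factor and classic clock output (chromosome 7, 45705088 to 45710203), had the smallest p of all genes. It stood at 46.7, 53.8 and 50.3 CPM in WT EAS37 and at 160.1 and 144.6 CPM in WT EAS42. In KI it stood at 14.9 and 12.8 CPM in EAS37 and at 49.9, 33.3 and 44.0 CPM in EAS42. Every EAS42 library lay well above the EAS37 libraries of its genotype, and the KI EAS42 libraries overlapped those of WT EAS37. The difference was 1.61 ± 0.11 (edgeR adjusted p = 3.92e-04), 1.60 within WT and 1.63 within KI. An exact two-sided permutation test within genotype gave p = 0.01, the smallest that its 100 assignments allow. Dbp was picked for its small p and its prefix groups do not overlap, so this value was nearly fixed in advance and adds no support. The edgeR adjusted p of Dbp stayed between 8.85e-05 and 0.00467 when each library was left out.

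Per3, a period gene (chromosome 4, 151003652 to 151044665), differed by 1.22 ± 0.11 (edgeR adjusted p = 0.00227). Its values were 46.7, 54.5 and 54.6 CPM in WT EAS37, 122 and 112 CPM in WT EAS42, 26.8 and 23.7 CPM in KI EAS37 and 69.5, 48.5 and 66.2 CPM in KI EAS42. Like Dbp it did not overlap between prefixes in either genotype, and its difference was 1.17 within WT and 1.29 within KI. Per2, also a period gene, differed by 1.22, with WT EAS37 1 (16.3 CPM) below WT EAS37 3 and 6 (31.6 and 36.6 CPM).

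The other called outputs differed by less. The nuclear receptor genes Nr1d1 and Nr1d2 (REV-ERB alpha and beta), which repress Arntl, were higher by 0.71 and 0.66. Tef and Hlf, the relatives of Dbp, were higher by 0.89 and 0.91, the cryptochrome gene Cry2 by 0.57, and Wee1, a clock-controlled cell cycle kinase gene outside the list, by 0.64. Arntl itself moved the other way, from 26.2, 26.2 and 22.1 CPM in WT EAS37 to 19.3 and 14.0 CPM in WT EAS42, and from 25.4 and 27.1 CPM in KI EAS37 to 20.6, 21.0 and 20.1 CPM in KI EAS42. Its difference of -0.47 ± 0.11 passed narrowly (edgeR adjusted p = 0.0496) and was lost in 9 of the 10 fits that left out a library. It was the single called member of 7 clock activators and genes of their phase, whose median was -0.17 (0.02 without WT EAS37 1).

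**Figure D3:**
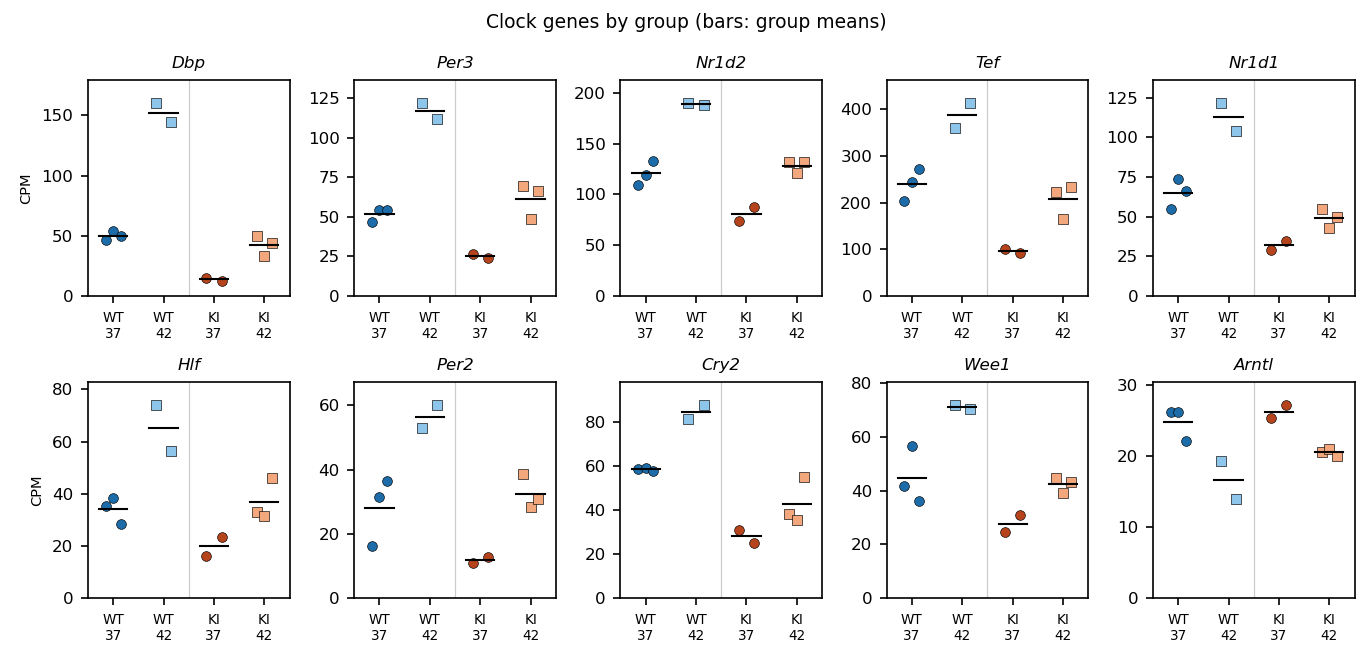
CPM for 9 clock output genes and Arntl in the 4 groups (37 and 42 stand for EAS37 and EAS42), with 1 point per library and a bar at each group mean. EAS42 squares lie above the EAS37 circles of the same genotype for the outputs, such as Dbp with 160.1 and 144.6 CPM against 46.7 to 53.8 CPM in WT, and below them for Arntl.

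The 250 bases before a RefSeq start of Per3 (minus strand of chr4:151044666-151044915) and of Tef (plus strand of chr15:81802423-81802672) are printed because they hold clock motifs, with TTATGTAA (a D-box) and CACGTG (an E-box) in capitals.
Per3: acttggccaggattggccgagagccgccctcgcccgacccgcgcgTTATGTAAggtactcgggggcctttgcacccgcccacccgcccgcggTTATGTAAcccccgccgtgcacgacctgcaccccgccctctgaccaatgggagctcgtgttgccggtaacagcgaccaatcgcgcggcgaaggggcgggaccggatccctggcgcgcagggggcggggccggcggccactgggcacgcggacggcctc
Tef: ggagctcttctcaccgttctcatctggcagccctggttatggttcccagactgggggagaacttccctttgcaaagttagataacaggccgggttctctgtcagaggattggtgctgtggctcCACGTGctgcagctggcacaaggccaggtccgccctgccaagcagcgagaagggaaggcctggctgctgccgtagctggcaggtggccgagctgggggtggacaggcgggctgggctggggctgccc

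Per3 holds TTATGTAA 205 to 198 and 158 to 151 bases before its start, and Tef holds CACGTG 127 to 122 bases before its start. On either strand of these 250 bases, TTATGTAA occurs in 0.819% of all promoters and CACGTG in 6.02%. Of the 8 called clock outputs 7 had a promoter in the table, with 1 gene holding CACGTG and 1 holding TTATGTAA. Clock sites elsewhere in these genes were not searched.

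Some pigment cell genes were higher in EAS42. Of 8 tested melanocyte genes, 3 were called higher, against 0.785% of all genes, and none lower, with a median of 1.33. The called genes were Tyr (tyrosinase), Dct (dopachrome tautomerase) and Pmel (a melanosome matrix protein). Mitf, the melanocyte master regulator, was not called, at -0.08 with both genotypes and -0.37 within WT. Dct stood at 16.4, 27.7 and 12.1 CPM in WT EAS37 and 31.5 and 51.3 CPM in WT EAS42, and at 5.75 and 8.80 CPM in KI EAS37 against 19.2, 20.3 and 22.2 CPM in KI EAS42. Its difference was 1.31 ± 0.24 (edgeR adjusted p = 0.0365), against 1.62 for Tyr and 1.20 for Pmel. The prefix groups of Dct were apart in both genotypes, narrowly in WT, where 27.7 CPM in EAS37 faced 31.5 CPM in EAS42. Trpm1, a channel gene of melanocytes, was higher by 1.35. The melanocyte count was 0 without WT EAS37 1, without either WT EAS42 library, without either KI EAS37 library and without KI EAS42 2 or 6. Whether the melanocytes were those of follicles was not measured.

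Sox10, a factor of Schwann cells and melanocytes, moved the same way by less. It stood at 20.3, 19.02 and 15.7 CPM in WT EAS37, 30.5 and 22.8 CPM in WT EAS42, 6.76 and 7.42 CPM in KI EAS37 and 13.8, 10.8 and 12.9 CPM in KI EAS42. The difference was 0.67 ± 0.13 (edgeR adjusted p = 0.0365), with the prefix groups apart in both genotypes. The 12 tested genes of the list of Schwann cells and myelin had a median difference of 0.86.

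A few genes of activated keratinocytes were lower in EAS42, with 3 of 19 tested called, against 1.69% of all genes called lower. Krt6a, a keratin of the companion layer and of wounded epidermis, stood at 1225, 1094 and 1717 CPM in WT EAS37 and 346.2 and 539.0 CPM in WT EAS42, and at 7431 and 5792 CPM in KI EAS37 against 1837, 3556 and 1812 CPM in KI EAS42. The difference was -1.53 ± 0.24 (edgeR adjusted p = 0.0202), and no EAS42 library reached an EAS37 library of its genotype. Lcn2 (lipocalin 2, which binds bacterial siderophores, -1.55) and Slpi (a secreted protease inhibitor, -2.004) were the other called members, none was called higher, and the median was -1.33. Within WT alone, Il1f9, which encodes an interleukin of the IL-1 family, was called higher (1.29; edgeR adjusted p = 0.0236), while its KI difference was -0.56. Lcn2 and Slpi were scarce in WT (0.0758 to 3.86 CPM) and 6.13 to 64.7 CPM in KI. The count of 3 fell to 0 without either WT EAS42 library, KI EAS37 2 or KI EAS42 2 and to 1 without KI EAS37 4 or KI EAS42 6, and DESeq2 called 9 and limma-voom 8.

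Krt14, the keratin of basal keratinocytes and of the outer root sheath, was lower by 0.91 on the log2 scale (edgeR adjusted p = 0.0225). It stood at 3828, 3395 and 4639 CPM in WT EAS37 against 1927 and 2114 CPM in WT EAS42, and at 12748 and 10454 CPM in KI EAS37 against 5682, 7639 and 5927 CPM in KI EAS42. Dst (dystonin, of the hemidesmosome) was higher by 0.64. These were the called genes among 12 of the basal list, whose median was 0.03, beside 2.47% called over all genes.

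Lrg1, which encodes a secreted leucine-rich glycoprotein (chromosome 17, 56119678 to 56122001), was the third gene called in all 10 fits. It stood at 24.4, 22.7 and 25.0 CPM in WT EAS37 and 12.8 and 10.96 CPM in WT EAS42, and at 43.2 and 54.1 CPM in KI EAS37 against 18.7, 24.3 and 22.3 CPM in KI EAS42. The difference was -1.09 ± 0.10 (edgeR adjusted p = 0.00340), with the prefix groups apart in both genotypes. Cxcl14, a chemokine of keratinocytes, was lower by 0.83, from between 247 and 308 CPM in WT EAS37 to 154 and 129.6 CPM in WT EAS42. Krt8, a keratin of simple epithelia and Merkel cells, ranged from 1.90 to 5.398 CPM in EAS37 and from 0.203 to 0.734 CPM in EAS42 (-2.82 ± 0.30; edgeR adjusted p = 0.00754). Gp5, a platelet glycoprotein gene, was lower by 3.09 at 17 counts in EAS42 against 127 in EAS37. Krt8 was the called gene of 7 tested in the mammary gland list, whose level ran from 2.33 to 3.09 in EAS37 and from 1.35 to 1.67 in EAS42. Its keratin partner Krt18 stood at -3.43 and was not called. Lrg1, Cxcl14 and Gp5 were singled out for their small p after their values were seen.

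Further lists held 1 or 2 called genes each, beside 2.47% called over all genes, and nothing is read from such counts about a list. Gclc (-0.95) and Gclm (-0.59), which encode the subunits of the enzyme that starts glutathione synthesis, were the called members of 13 NRF2 targets, and Gpx2, a glutathione peroxidase gene outside the list, was lower by 2.19. Pfkp, a phosphofructokinase, was lower by 0.72 and was the called gene of 18 in the list of hypoxia and glycolysis. Fads3, a fatty acid desaturase relative, was lower by 2.45 and was the called gene of 16 in the sebaceous list. Id1, a BMP target, was lower by 0.35 and was called with Id4 among 14 BMP genes. Sdc1, which plasma cells and keratinocytes share, was lower by 0.91 and was the called gene of 6 in the B cell list. Among 23 immediate early genes, Egr1 was lower by 0.78 and Ccn2 higher by 0.79.

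The largest rises by the rule were Actc1 (3.38), Slc26a7 (3.17), Ttr (2.55), Tnni3k (2.24), Tcf15 (1.84), Gm19439 (1.83), Il31ra (1.78), Gm21860 (1.73), Prss35 (1.68) and Tyr (1.62). Actc1 encodes cardiac alpha actin, which skin muscle also makes (chromosome 2, 114047282 to 114053548). It stood at 6.58, 13.9 and 7.36 CPM in WT EAS37 against 102.5 and 86.3 CPM in WT EAS42, and at 0.454 and 0.190 CPM in KI EAS37 against 8.02, 0.635 and 2.08 CPM in KI EAS42. The groups were apart in both genotypes, and WT EAS42 stood far above the other 3 groups. The skeletal muscle list overlapped between prefixes, with levels of 6.64 to 10.26 in EAS37 and 8.30 to 10.34 in EAS42, 0 of 22 called and a median of 0.83. With the muscle list level as a covariate, 64 of the 74 genes followed above lost their call. The list's part in the Actc1 difference is not read from that fit.

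Slc26a7, an anion transporter gene, stood at 1.751, 2.74 and 1.06 CPM in WT EAS37 against 14.7 and 16.3 CPM in WT EAS42, and at 0 and 0.143 CPM in KI EAS37 against 0.654, 0.973 and 1.47 CPM in KI EAS42. It was called with an adjusted p of 0.0114 by edgeR. Il31ra, a receptor subunit for the itch cytokine IL-31, stood at 17.0 to 28.6 CPM in WT EAS37, 52.9 and 72.1 CPM in WT EAS42, 1.87 and 4.62 CPM in KI EAS37 and 7.32 to 23.1 CPM in KI EAS42. Ttr, the thyroxine and retinol carrier transthyretin, rose from at most 1.57 CPM in EAS37 to between 2.27 and 11.6 CPM in EAS42. Gm21860 is annotated on chromosome Y at 90754513 to 90754821, where it overlaps Mid1-ps1, and reads from related copies elsewhere make its source uncertain. Of 6 sex-linked genes listed (Xist, Tsix, Ddx3y, Eif2s3y, Kdm5d and Uty), the filter kept 1, which was not called (difference 0.077). Its log2 CPM ran from 9.58 to 9.75 in EAS37 and from 9.68 to 9.74 in EAS42. Ddx3y, Eif2s3y, Kdm5d and Uty lie on chromosome Y, so most of the listed Y genes were too scarce to test in these libraries.

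**Figure D4:**
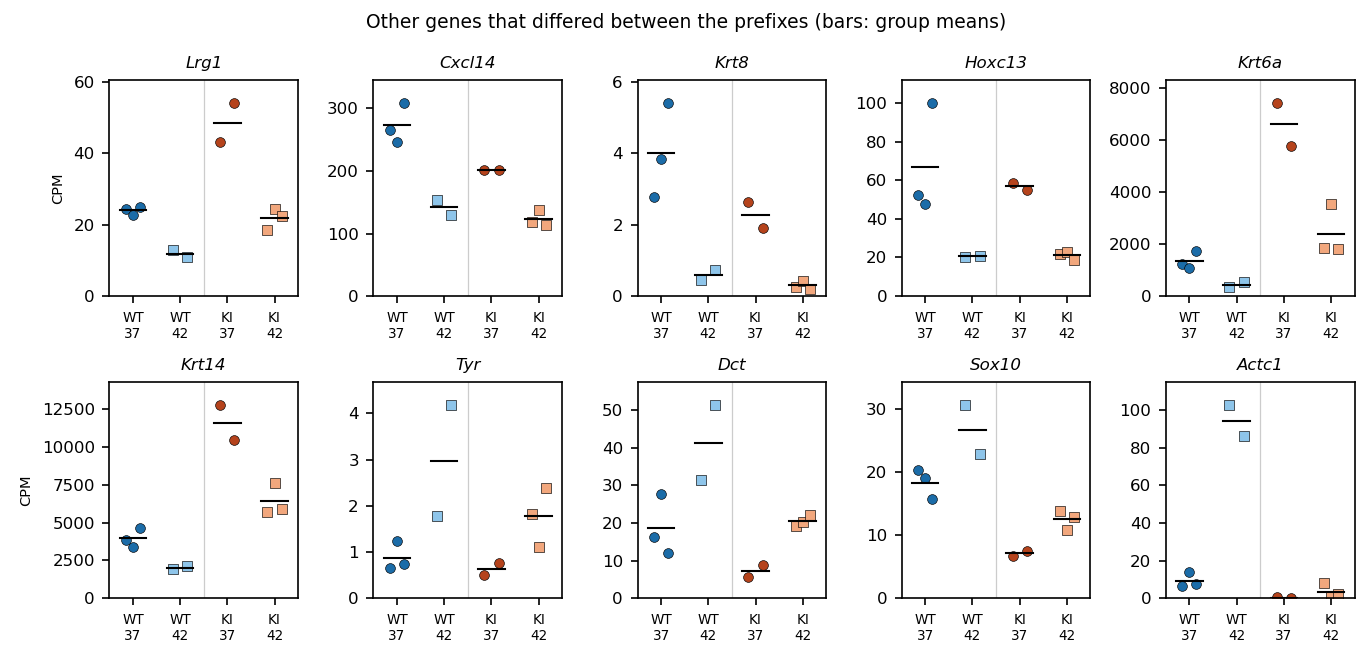
CPM for 10 genes outside the shaft and the clock in the 4 groups (37 and 42 stand for EAS37 and EAS42), with 1 point per library and a bar at each group mean. Lrg1, Cxcl14, Krt8, Hoxc13, Krt6a and Krt14 are lower in EAS42 within each genotype, and Tyr, Dct, Sox10 and Actc1 higher.

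Within WT alone, where no library carries the knock-in, 3 EAS37 libraries were compared with 2 EAS42 libraries. Of the 17321 genes, 127 were called (0.733%), 42 higher in EAS42 (0.242%) and 85 lower (0.491%). These WT libraries also entered the adjusted test, so the overlap of the lists is no independent support: 43 genes were in both, 10.05% of the adjusted calls and 33.9% of the WT calls. Every adjusted call had the same sign in the WT fit, which was nearly given, since almost all of them were apart in the same direction in both genotypes. The count was 0 without WT EAS42 1 or WT EAS42 3 (edgeR; 1645 and 1912 genes at an unadjusted p under 0.05), 19 without WT EAS37 1, 26 without WT EAS37 3 and 1096 without WT EAS37 6.

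None of the 21 hair shaft genes or 37 Krtap genes was called in WT alone, where the summed Krtap level ran from 130.6 to 7353 CPM over the 3 EAS37 libraries. The median differences of both groups in WT were -7.31 and -8.64, against -0.0084 over all genes. Dbp (1.60; edgeR adjusted p = 0.00847) and Per3 (1.17; edgeR adjusted p = 0.0159) were the called clock outputs in WT. Lrg1 (-1.01) and Cxcl14 (-0.95) were called as well, and so were Actc1, Slc26a7, Ttr and Tnni3k, which with Wif1 were the largest rises.

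Some WT calls did not recur in KI. Mmp11 encodes stromelysin 3, a protease of remodelling stroma (chromosome 10, 75923222 to 75936496). It stood at 192, 236 and 165 CPM in WT EAS37 against 5.61 and 6.74 CPM in WT EAS42, a difference of -5.002 ± 0.21 (edgeR adjusted p = 0.00274). In KI it stood at 26.2 and 36.6 CPM in EAS37 and at 69.1, 74.8 and 60.8 CPM in EAS42, a difference of 1.13 in the opposite direction. It was not called with both genotypes together, and the difference between the genotypes was not tested here.

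Wif1, a secreted WNT inhibitor, stood at 3.89, 4.37 and 2.96 CPM in WT EAS37 against 22.6 and 20.1 CPM in WT EAS42 (2.51; edgeR adjusted p = 0.0119), and at 1.21 to 2.81 CPM in KI EAS37 against 2.20 to 4.71 CPM in KI EAS42. Lgr5, a stem cell receptor gene of the lower follicle, stood at 94.5, 91.7 and 113 CPM in WT EAS37 against 29.7 and 36.4 CPM in WT EAS42 (-1.59; edgeR adjusted p = 0.0159), while its KI values of 35.2 to 43.3 CPM overlapped. Sox9 (-1.32), Lhx2 (-0.73) and Gas1 (-0.76), further genes of follicle stem cells and their germ, were also called lower in WT. Thus 4 of 17 tested bulge and resting follicle genes were called lower and 1 higher in WT, against 0.491% and 0.242% of all genes. Msx2 was lower by 2.23 in WT.

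The other largest falls within WT were Gm6565, Sprr4, Plekhd1 (-3.61) and Gpx2. Gm6565, a processed pseudogene that overlaps Shq1, stood at 2.33, 3.40 and 1.69 CPM in WT EAS37 and was listed at 0 in both WT EAS42 libraries while KI libraries ran from 0 to 5.85 CPM and overlapped. Reads shared with Shq1 make its source uncertain. Sprr4, a cornified envelope gene, stood at 6.44 to 9.49 CPM in WT EAS37 against 0.367 and 0.417 CPM in WT EAS42, and its KI libraries overlapped between 9.83 and 54.4 CPM. Gpx2 stood at 34.6 to 50.5 CPM in WT EAS37 against 4.13 and 4.77 CPM in WT EAS42, and at 112 and 58.7 CPM in KI EAS37 against 28.1 to 48.5 CPM in KI EAS42.

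Of the 44 gene lists described, 27 held no called gene by edgeR in the adjusted comparison. Among them were the cornified layer (27 tested, median 0.44, with 0.97 within WT and -0.10 within KI), white adipocytes (20, median 0.21), fibroblasts and matrix (21, median 0.28), blood vessel endothelium (14, median 0.13), T and NK cells (16, median 0.38), the interferon response (24, median 0.17), the cell cycle (30, median -0.04), cytosolic ribosomal proteins (36, median -0.02) and mitochondrially encoded genes (15, median 0.05). Medians of these 27 lists ran from -0.92 (neutrophils, 5 tested) to 0.83 (skeletal muscle). Genes known to vary among mouse strains had 0 of 17 called and a median of 0.22. Within WT alone, single members of 4 of these lists were called by edgeR, Klk5 of the cornified layer (1.09), Tnnt1 of skeletal muscle (1.84) and Gm21887 of the strain list (0.93) higher and Pdgfrb of fibroblasts (-0.84) lower. Among the 27 lists, the levels of T and NK cells and of lymph node stroma (3 tested) were higher in EAS42 within each genotype, without overlap. For T and NK cells this was narrow in KI, with 1.90 in KI EAS37 4 against 1.91 in KI EAS42 2. The level of the unfolded protein response (14 tested, median -0.25) was lower in both genotypes. Of the 22 tested genes of iron handling, Lcn2 was the single called gene, and the median was -0.05.

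**Figure D5:**
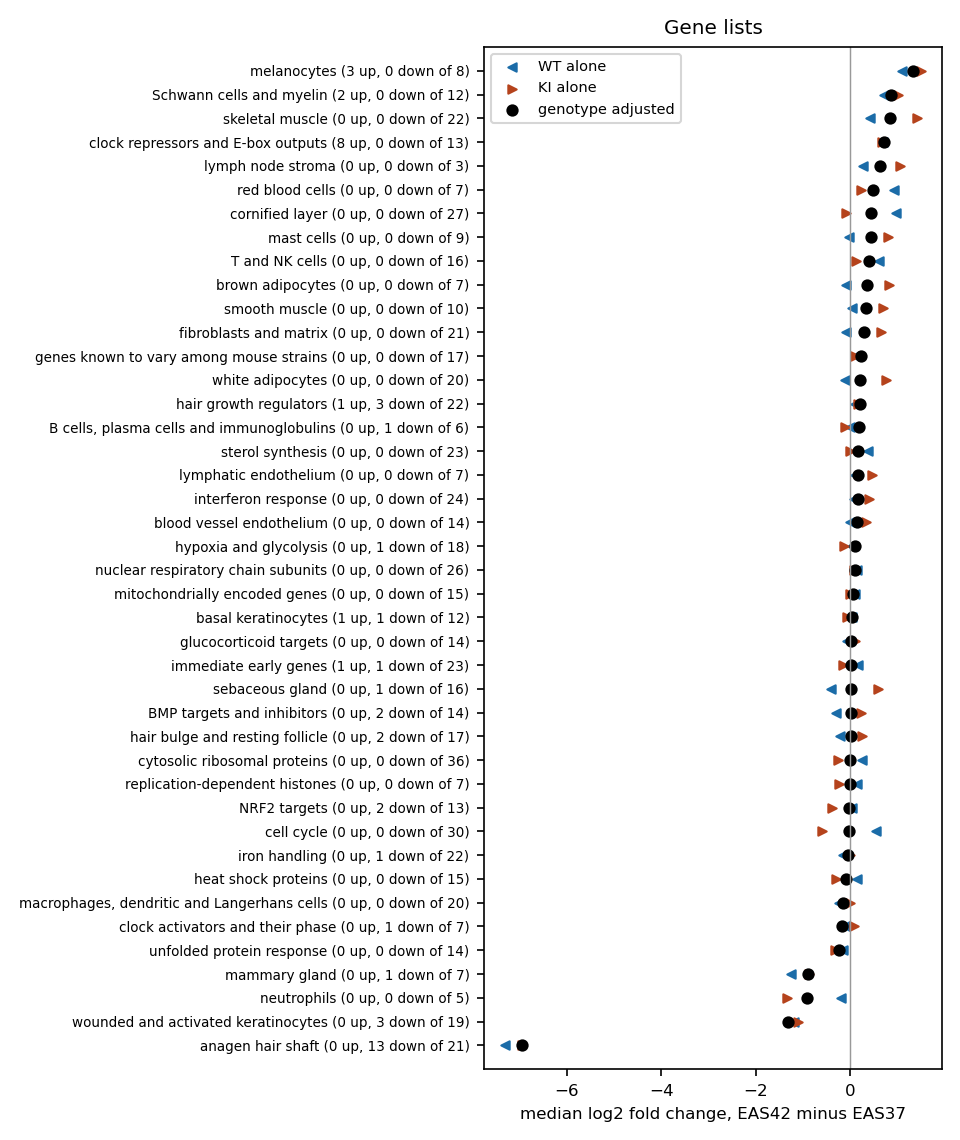
Median difference (log2, EAS42 minus EAS37) over the tested members of each list with at least 3 of them. Black points are the genotype-adjusted fit, blue triangles WT alone and orange triangles KI alone, and brackets give the members called. The hair shaft list lies lowest at -6.94, and melanocytes highest at 1.33.

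Called genes were spread over the chromosomes, with the largest shares on chromosome 16 (4.88% of 553 tested genes, 15 of its 27 calls being keratin or Krtap genes) and chromosome 11 (3.99% of 1403, with 22 of 56), apart from chromosome Y, where 1 of 2 tested genes was called. The remaining chromosomes had between 0% (mitochondrial, 15 genes) and 3.69% (chromosome 1) called.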

How the data were processed

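Skin RNA was isolated with trizol, and 250 ng entered a stranded mRNA library preparation of Illumina, per the labels' protocols. The submitters' processing notes list GRCm38, STAR 2.5.2b, Picard 2.8.1, FastQC, DESeq2 1.14.1 and featureCounts. The authors deposited RSEM gene tables holding expected counts, TPM and FPKM, per the file headers. Neither RSEM's version nor its annotation or strand setting is stated in the sources. TPM were checked for their sums and FPKM left unused, both as deposited. Libraries held 18.96 to 26.43 M counts, 3.58% to 5.31% of them mitochondrial.

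Expected counts as deposited were rounded. GENCODE M21 named 55227 of 55487 identifiers, and the rest held 0.0113% of counts. In edgeR 4.0.16 (R 4.3.3), filterByExpr (minimum count 10, with the prefixes as groups) kept 17321 genes and removed 0.127% of counts. The robust quasi-likelihood test (TMM, Benjamini-Hochberg, threshold 0.05) took genotype and prefix as terms, or prefix alone within WT. SE is the absolute difference over the root of F. CPM use TMM library sizes, and log2 CPM a prior count of 2. On counts simulated for 17321 genes, the adjusted test recovered 29.9%, 76.1% and 95.5% of genes changed 1.5-fold, 2-fold and 4-fold, and the WT test 7.46%, 37.3% and 93.9%. The changed genes, 66 or 67 per fold, were drawn only from those with higher mean counts, so recovery of scarce genes was not measured. False calls made up 6.29% and 9.80% of the calls in these simulations, beside the nominal 5%. These shares rest on 9 and 10 false calls from a single simulated set each. An excess over 5% is thus neither shown nor excluded.

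The comparison, the 44 lists (740 names, 2 not matched) and the rule for named genes were chosen with earlier results of these data known. Genes were named by 3 criteria: the 10 largest rises and 10 largest falls among called genes with a mean of at least 1 CPM, the same 5 and 5 in WT, and from each list at most 4 genes, by smallest p. Any gene named outside them was singled out after its values were seen. Alternatives were other normalizations, filters, offsets, tools (DESeq2 1.42.0, limma 3.58.1), covariates, blocks and each library left out. P-values set the prefix difference against the spread between these libraries. What a prefix stands for was not repeated, so they do not speak for a repeat of it. The result of a single gene is not reported here.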

Additional observations from a re-analysis of the deposited data

Results flagged for a closer look

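Mmp11 and 3 gene lists went opposite ways in the genotypes, with the prefix groups apart in each, and the difference between the genotypes was not tested for any of them. Mmp11 differed by -5.002 within WT alone and by 1.13 within KI alone. Heat shock proteins had a median difference of 0.13 in WT (15 genes) and -0.30 in KI, with the list level higher in EAS42 in WT and lower in KI. The cell cycle list (30 genes) had a median of 0.54 in WT and -0.60 in KI. Cytosolic ribosomal proteins (36 genes) had a median of 0.25 in WT and -0.25 in KI. No member of these 3 lists was called by edgeR in the adjusted comparison, and across all genes 6.94% were apart in opposite directions in the genotypes.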

How the results depend on the processing

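With both genotypes, the count of called genes (428) was 1483 with DESeq2, 50 with no genotype block, 208 with the white adipocyte level and 21 with the skeletal muscle level as a covariate, 256 in KI libraries alone, 178 where only differences of at least 2-fold counted, and 3 to 457 without 1 library. With the anagen hair shaft level as a covariate edgeR called 0 genes (807 at an unadjusted p under 0.05). That level separates the prefixes without overlap, and in that fit Tchh stood at 0.55 and Dlx3 at 0.058, opposite to their reported directions. With title numbers 1 to 4 as a replicate block in place of genotype, on 8 libraries, 232 genes were called, 151 of them shared with the 428. Deviations of libraries with the same number correlated by 0.11, 0.20, -0.02 and 0.20. WT EAS42 and KI EAS37 hold 2 libraries each, whose deviations from their mean mirror each other. These values thus cannot exclude a pairing, and the numbers were not taken to pair the animals. Other normalizations, filters, offsets, a non-robust fit and limma-voom gave 314 to 460.

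Within WT alone, the count (127) was 694 with no filter on low counts, 1452 with DESeq2, 61 with limma-voom, 530 from a fit of 4 group means, 1857 with a replicate block on numbers 1 and 3 (4 libraries) and 0 to 1096 without 1 library. In that last fit, as in those without a WT EAS42 library, few libraries estimate the spread. The cause of these differences in counts was not tested. Low counts limit Gp5 and the EAS42 values of the hair genes, whose ratios carry wide intervals.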
